A study of Mus musculus with 6 samples.

Results

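The Wnt family of secreted ligands, its cell surface receptors and its secreted antagonists was examined in neuroblastoma xenografts with and without inhibition of the chemokine receptor CXCR4. The set comprised every gene whose symbol on the array annotation is that of a numbered WNT ligand, a Frizzled receptor (FZD), the co-receptors LRP5 and LRP6, a Dickkopf antagonist (DKK1 to DKK4) or a secreted Frizzled-related protein (SFRP1 to SFRP5). It held 39 of the 18417 genes measured: 19 WNT ligands, 10 Frizzled receptors, 2 co-receptors, 4 Dickkopf genes and 4 SFRP genes. Its genes were taken by symbol and not by measured value, but the set itself was chosen with earlier results of these data known. SFRP3 carries the symbol FRZB on this array and was counted with the other antagonists described further on.

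Tumours had grown from SK-N-BE(2), an established human neuroblastoma line with amplified MYCN, placed in the adrenal gland of NSG mice, which have no T, B or natural killer cells but keep myeloid cells, vessels and stroma of their own. The treated group of 3 mice received BL-8040, a CXCR4 inhibitor, at 400 µg by the subcutaneous route over 14 days in a row from day 7 after the cells were placed. The control group held 3 mice of the same kind; what they were given is not stated in the sources used here, and the ages of the mice are not given either. Every tumour came from 1 cell line, and each was read on 1 array of human probe sets (Human Gene 1.0 ST), which also binds mouse RNA to an unmeasured extent. Signals below are the deposited log2 values, and a difference is always BL-8040 minus control in log2 units.

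In the canonical Wnt pathway, a WNT ligand binds a Frizzled receptor together with LRP5 or LRP6, the cytoplasmic complex that degrades β-catenin is inhibited, and β-catenin then activates genes with the TCF and LEF factors. Dickkopf proteins act mainly by binding the LRP co-receptors, and SFRP proteins bind the ligands themselves outside the cell. Some ligands, WNT5A foremost, signal mainly without β-catenin, through receptors such as ROR2 and the planar polarity proteins. Wnt signals act in the induction and migration of the neural crest, from which sympathetic neurons and neuroblastoma arise.

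Across genes the pairwise r of the 6 arrays ran from 0.992 to 0.997. BL-8040 replicate 3 stood somewhat apart (median r of 0.994) and held the highest or lowest of the 6 values for 46.8% of all genes, the largest share of any array, but for 15 of the 39 Wnt genes (38.5%), below the 41.0% of BL-8040 replicate 1. The 9 measured markers of adrenergic neuroblastoma cells all had a signal above the median gene, whereas none of 8 adrenal cortex markers and none of 7 Schwann cell markers did. Of the fibroblast markers, 8 of 10 lay above the median gene, as did 1 of 10 endothelial and 2 of 10 myeloid markers. Whether these signals came from human or mouse RNA was not measured.

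A gene's signal on the array depends on how well its probes bind as well as on transcript abundance, so the rank of a mean signal among all 18417 genes is given only as a description, and genes are not ordered by abundance. The antagonist DKK1 had the highest rank of the set, at percentile 98.6. Both co-receptors were bright, LRP6 at percentile 89.8 and LRP5 at 87.7. Among the receptors, 8 of 10 ranked above the median gene, led by FZD3 at percentile 83.0, a receptor known for its part in axon guidance, and FZD2 at 79.9. The ligands were mostly dim: 4 of 19 ranked above the median gene, WNT6 highest at percentile 66.7 and WNT2 lowest at 9.14. The antagonists divided into bright and dim genes, with DKK2, DKK3 and SFRP1 at percentiles 86.9, 85.1 and 89.2, and DKK4, SFRP2 and SFRP4 at 15.4, 20.5 and 8.20. Whether a dim gene was expressed at all could not be told, since no detection call was used here.

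**Figure D1:**
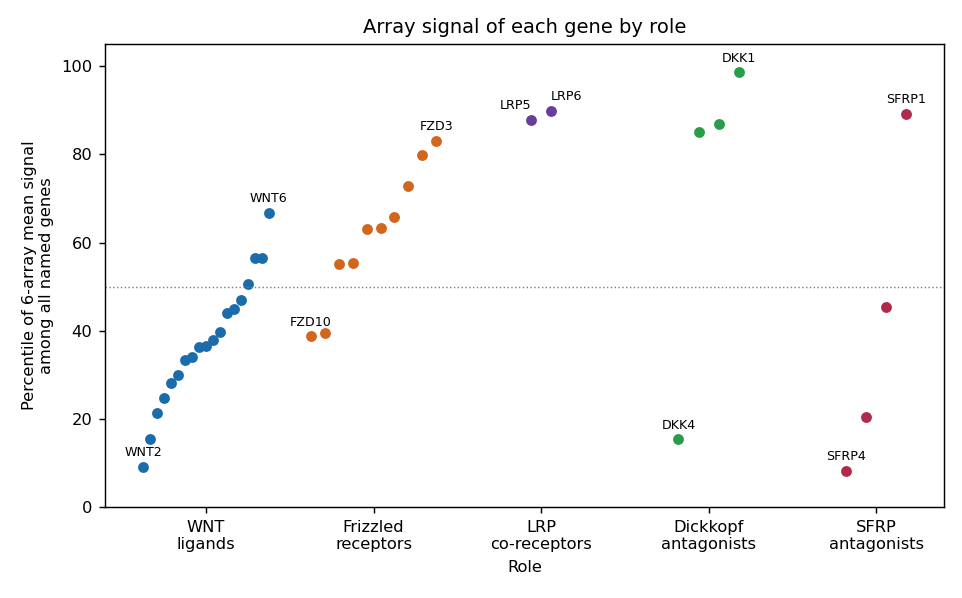
Percentile of the mean signal over 6 arrays among all 18417 named genes (vertical axis), 1 point per gene, by role (horizontal axis); the highest and lowest gene of each role is named and the dotted line marks the median gene. Most WNT ligands lie below the line, 8 of 10 Frizzled receptors and both co-receptors above it, and DKK1 is highest at percentile 98.6.

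No gene of the set passed the test for a difference between BL-8040 and control tumours. In limma, with Benjamini-Hochberg adjustment over the whole table, 0 of the 39 genes had an adjusted p under 0.05, and the background was 0% of all genes. The smallest adjusted p in the set was 0.644. At an unadjusted p under 0.05 stood 2 of the 39 genes (5.13%), WNT8A and WNT10B, against 1422 or 7.72% of all genes: 1 was higher, where 2.64% of all genes were, and 1 was lower, where 5.08% of all genes were. The treated and control values did not overlap for 2 genes (5.13%), WNT8A on the higher and WNT5A on the lower side, against 14% of all genes, 4.93% higher and 9.05% lower. Both shares of the set were below the background on the deposited values, but each rests on 2 genes. With replicate number as a block in the fit, FZD2 and FZD8 joined WNT8A and WNT10B at an unadjusted p under 0.05. That share of the set was above the 8.08% of all genes. In all, 17 members were higher and 22 lower, with a median difference of -0.01, where the median of all genes was -0.02 and 58.5% of them were lower. The difference was smaller than 0.1 log2 units to either side for 27 of the 39 genes (69.2%), against 61.0% of all genes.

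The precision bounds what these numbers can hold. The standard error (SE) of a difference is throughout the moderated one of limma, which pulls each gene's variance toward that of all genes. With 3 arrays per group it had a median of 0.09 over the set and lay between 0.07 and 0.33. For 37 of the 39 genes (94.9%) the 95% interval of the difference lay wholly within a 1.5-fold change to either side (0.58 log2 units), which held for 96.5% of all genes. The exceptions were FZD5, whose interval ran from -1.25 to 0.25, and WNT8A, from 0.06 to 0.60. These intervals are per gene and not adjusted for the number of genes.

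**Figure D2:**
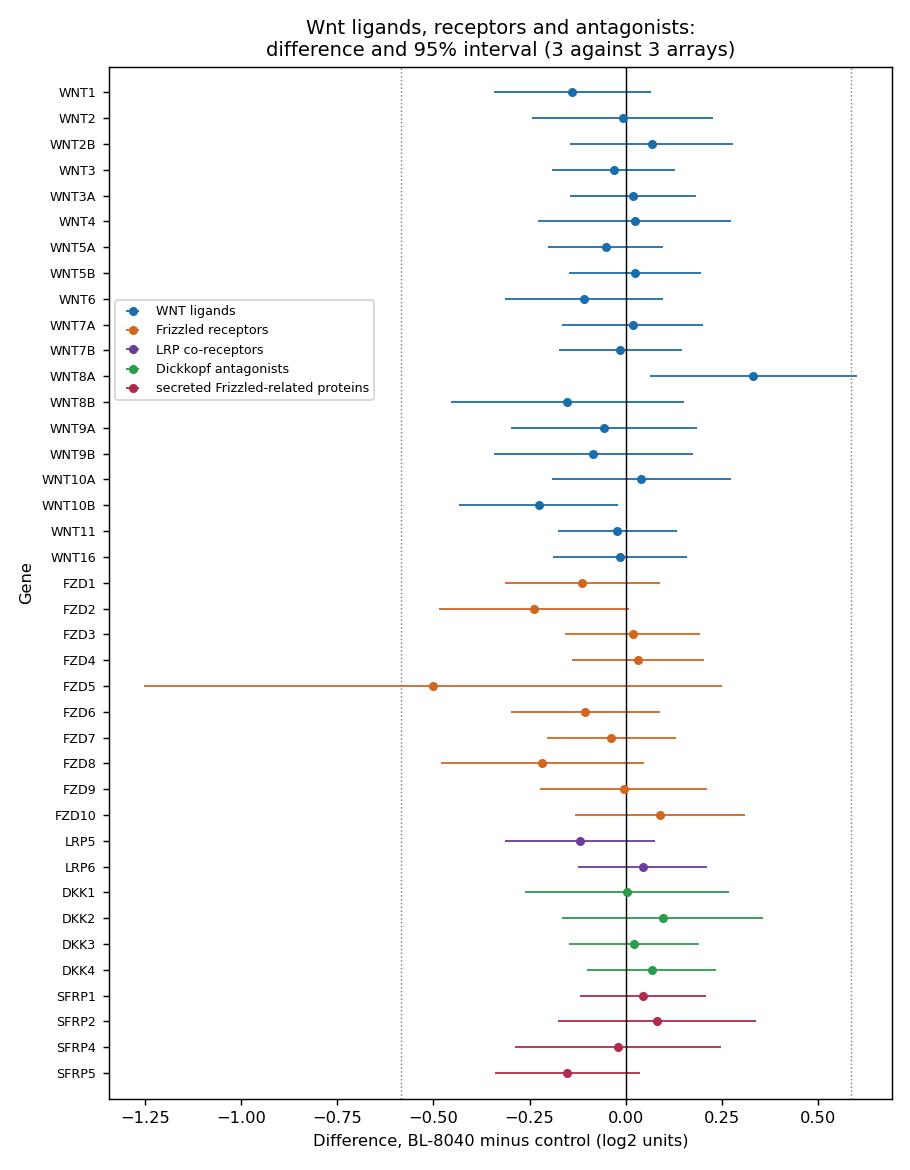
Difference in log2 signal, BL-8040 minus control (horizontal axis), for each of the 39 genes (vertical axis), as points with 95% intervals from limma (3 against 3 arrays), coloured by role. Dotted lines mark a 1.5-fold change; the interval of FZD5 (-1.25 to 0.25) is the widest, and those of WNT8A and WNT10B do not reach 0 before adjustment.

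Among the ligands, 7 were higher and 12 lower in treated tumours (median difference -0.02). Without control replicate 3 the split turned to 11 higher and 8 lower. WNT8A, a ligand of canonical signalling in the early embryo, had the largest difference upward. It stood at 4.75, 4.77 and 4.94 in BL-8040 replicates 1, 2 and 3 and at 4.22, 4.66 and 4.58 in the controls. All 3 treated values lay above all 3 controls, with the lowest value of the set of 6 in control replicate 1. The difference was 0.33 ± 0.12 (SE), or 1.26-fold. It had an adjusted p of 0.644 in limma and an exact permutation p of 0.1, the smallest that 3 against 3 arrays can give. Without control replicate 1 the difference of WNT8A was 0.20, and without BL-8040 replicate 3 it was 0.27. Its signal ranked at percentile 28.1, so the difference concerns a dim probe set.

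WNT10B, a canonical ligand known for favouring bone over fat formation, had the largest difference downward among the ligands. Its treated values were 5.59, 5.50 and 5.77, and its control values 5.75, 5.84 and 5.94. The groups overlapped, as BL-8040 replicate 3 lay above control replicate 1. The difference was -0.23 ± 0.09 (SE), or 0.855 times the control level (limma adjusted p = 0.644, exact permutation p = 0.2). With 1 array left out, the difference of WNT10B ranged from -0.16 without BL-8040 replicate 2 to -0.30 without BL-8040 replicate 3.

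WNT5A, the main ligand of β-catenin-independent signalling, varied least of the whole set over the 6 arrays. It was measured at 3.61, 3.63 and 3.65 after BL-8040 and at 3.71, 3.67 and 3.66 in the controls. The groups did not overlap, but the margin was small. The difference was -0.05 ± 0.07 (moderated SE), with a 95% interval from -0.20 to 0.10 and a limma adjusted p of 0.841. The SDs of WNT5A itself were smaller than that SE, at 0.02 after BL-8040 and 0.03 in the controls. Under median centring of the arrays the groups of WNT5A overlapped, and under quantile normalization they did not.

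The brightest ligand probe sets were those of WNT6, WNT1 and WNT3. WNT6, a ligand of epithelia and of the early neural crest, read 6.96, 6.97 and 6.91 after BL-8040 and 6.92, 7.02 and 7.23 in the controls (difference -0.11 ± 0.09, SE). WNT1, needed for the midbrain and for neural crest expansion, read 6.31, 6.39 and 6.38 against 6.45, 6.37 and 6.67 (difference -0.14 ± 0.09, SE). In both genes the treated values were close together and the single high value was that of control replicate 3. WNT3, a canonical ligand of gastrulation, read 6.37, 6.42 and 6.44 against 6.45, 6.38 and 6.50 (difference -0.03 ± 0.07, SE). For all 3 genes the groups overlapped and the adjusted p in limma was at least 0.696.

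The other 13 ligands were WNT2, WNT2B, WNT3A, WNT4, WNT5B, WNT7A, WNT7B, WNT8B, WNT9A, WNT9B, WNT10A, WNT11 and WNT16. Of these, 6 were higher and 7 lower, with differences between -0.15 (WNT8B) and 0.07 (WNT2B) and limma adjusted p of 0.761 or more. WNT11, a ligand of cell movement during gastrulation, varied least of the 13, from 5.22 to 5.32 over the 6 arrays. WNT8B varied most of the 13, from 3.92 to 4.52, and its highest value was that of control replicate 3. The difference of WNT8B was 0.002 without control replicate 3 and -0.30 without control replicate 1. That of WNT2B was 0.02 without control replicate 1 or without BL-8040 replicate 3, and 0.13 and 0.14 without BL-8040 replicate 1 and without control replicate 3.

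The extreme values of the ligands were most often those of control replicates 3 and 1, with BL-8040 replicate 1 close behind. Control replicate 3 gave the highest of the 6 values for 9 of 19 ligands and the lowest for 0. Control replicate 1 gave the highest for 2 and the lowest for 7, and BL-8040 replicate 1 the highest for 2 and the lowest for 6. Over all genes, control replicate 3 gave the highest value for 20.8%. The lowest was that of control replicate 1 for 13.0% and of BL-8040 replicate 1 for 12.8%. These counts are a description and were not tested. With each gene set against its own average, the median ligand lay at 0.07 in control replicate 3 and at -0.05 in control replicate 1, and at -0.06, -0.03 and 0.03 in BL-8040 replicates 1, 2 and 3. Control replicate 3 also had the highest median signal over all probe sets, 5.42, where the other arrays lay between 5.35 and 5.41. After median centring of the arrays the median ligand lay at 0.03 in both control replicate 3 and control replicate 2, and after quantile normalization at 0.05 and 0.03. The part of the overall signal level in these counts was not tested.

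**Figure D3:**
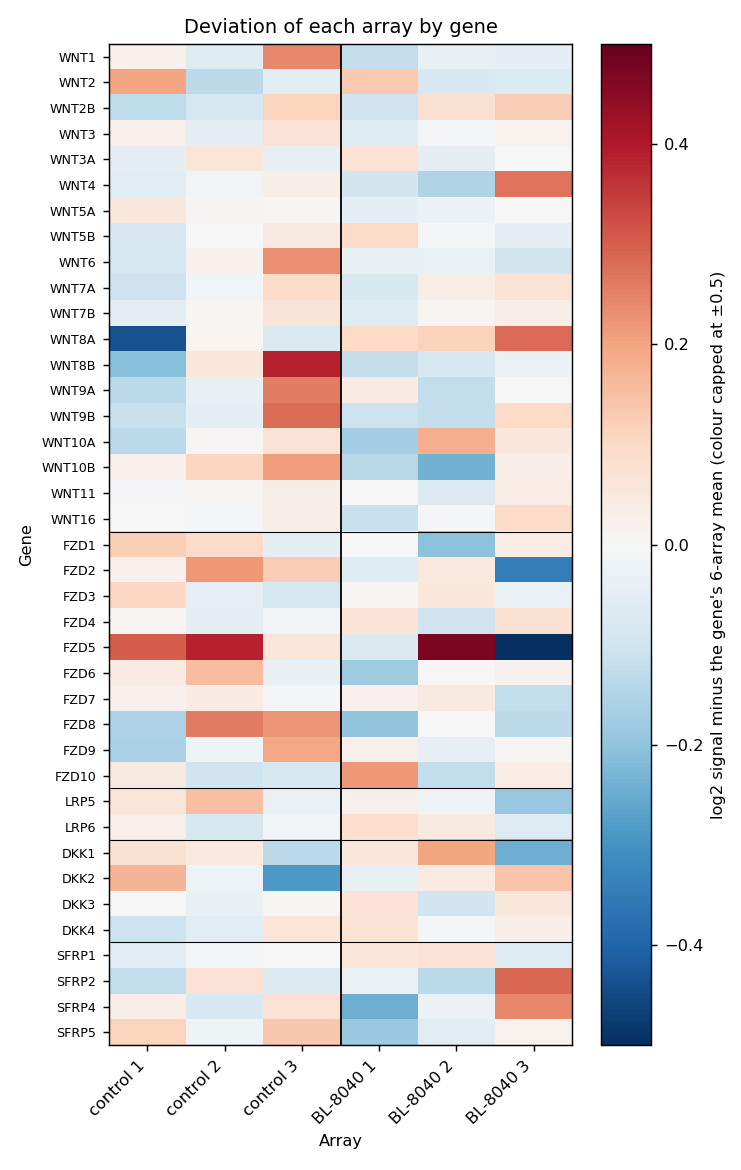
Log2 signal of each array minus the gene's mean over 6 arrays (colour, capped at 0.5 to either side), for the 39 genes in rows ordered by role and the 6 arrays in columns, controls to the left of the black line. Many WNT rows are red in control replicate 3, and FZD5 has the deepest blue in BL-8040 replicate 3.

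On the deposited values none of the Frizzled receptors reached an unadjusted p under 0.05 or had groups without overlap, against 7.72% and 14% of all genes. Of the 10 receptors, 7 were lower and 3 higher, with a median difference of -0.07. The split was 7 to 3 under quantile normalization and median centring as well, and 6 lower to 4 higher with array weights or without BL-8040 replicate 3. The largest difference of the whole set was that of FZD5, a receptor needed for vessels of the yolk sac and for the maturation of intestinal Paneth cells. FZD5 stood at 6.75, 7.29 and 5.67 in BL-8040 replicates 1, 2 and 3 and at 7.12, 7.20 and 6.88 in the controls. The low value of BL-8040 replicate 3 was apart from the other 5, while BL-8040 replicate 2 held the highest value, so the groups overlapped. The means were 6.57 ± 0.82 and 7.07 ± 0.17 (SD, n = 3 each), and the difference of -0.50 ± 0.33 (SE) had a limma adjusted p of 0.704 and an exact permutation p of 0.5. Without BL-8040 replicate 3 the difference of FZD5 was -0.05, and without BL-8040 replicate 2 it was -0.86.

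The range of FZD5 over the 6 arrays, 1.62 log2 units, was at percentile 99.9 of all genes, against a median range of 0.33 in the set and 0.30 over all genes. The 9 adrenergic markers were also each lowest in BL-8040 replicate 3, with a mean level of 8.76 against 9.23 to 9.53 in the other arrays. Between the groups 8 of the 9 were lower after BL-8040 (median difference -0.21), where 58.5% of all genes were lower. The drop in BL-8040 replicate 3 was uneven: TH read 7.53 against 8.70 to 9.32 elsewhere, and ISL1 8.45 against 8.53 to 8.64. Of all genes, 30.5% were lowest in BL-8040 replicate 3. The mean of the 10 fibroblast markers was highest there, at 8.25 against 7.88 to 8.07, but its members were divided: 6 were highest of the 6 arrays in BL-8040 replicate 3, the collagen genes COL1A1 and COL1A2 among them, and DCN, PDGFRB and THY1 were lowest. The part of tumour cell content or state in the FZD5 value was not tested, and in bulk tumours fewer cells of a type cannot be told apart from less RNA per cell.

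FZD2, a receptor that can bind WNT5A, read 7.73, 7.84 and 7.44 after BL-8040 and 7.81, 8.00 and 7.91 in the controls. Its lowest value too was that of BL-8040 replicate 3, and BL-8040 replicate 2 overlapped the controls. The difference was -0.24 ± 0.11 (SE), with a 95% interval from -0.48 to 0.01 and a limma adjusted p of 0.646. Without BL-8040 replicate 3 the difference of FZD2 was -0.12. FZD2 stood at an unadjusted limma p under 0.05 in some alternative runs. Among these were quantile normalization and a fit with replicate number as a block, where 8.39% and 8.08% of all genes stood. FZD1, a canonical receptor, read 7.34, 7.14 and 7.38 against 7.46, 7.44 and 7.30 (difference -0.11 ± 0.09, SE). FZD3 stayed within a narrow span, at 8.00, 8.04 and 7.96 against 8.09, 7.95 and 7.90 (difference 0.02 ± 0.08, SE).

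The other 6 receptors, FZD4, FZD6, FZD7, FZD8, FZD9 and FZD10, included 2 higher and 4 lower genes. FZD8 differed most, by -0.22 ± 0.12 (SE), with values between 6.17 and 6.62 and a limma adjusted p of 0.661. The difference of FZD8 was -0.35 without control replicate 1 and -0.14 without control replicate 2. FZD10 differed by 0.09 ± 0.10 (SE) and FZD6, which acts in planar polarity, by -0.10 ± 0.09 (SE). FZD4, the receptor of the retinal vessel ligand norrin, and FZD7, a receptor of stem cell maintenance, differed by 0.03 and -0.04, and FZD9 by -0.01.

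**Figure D4:**
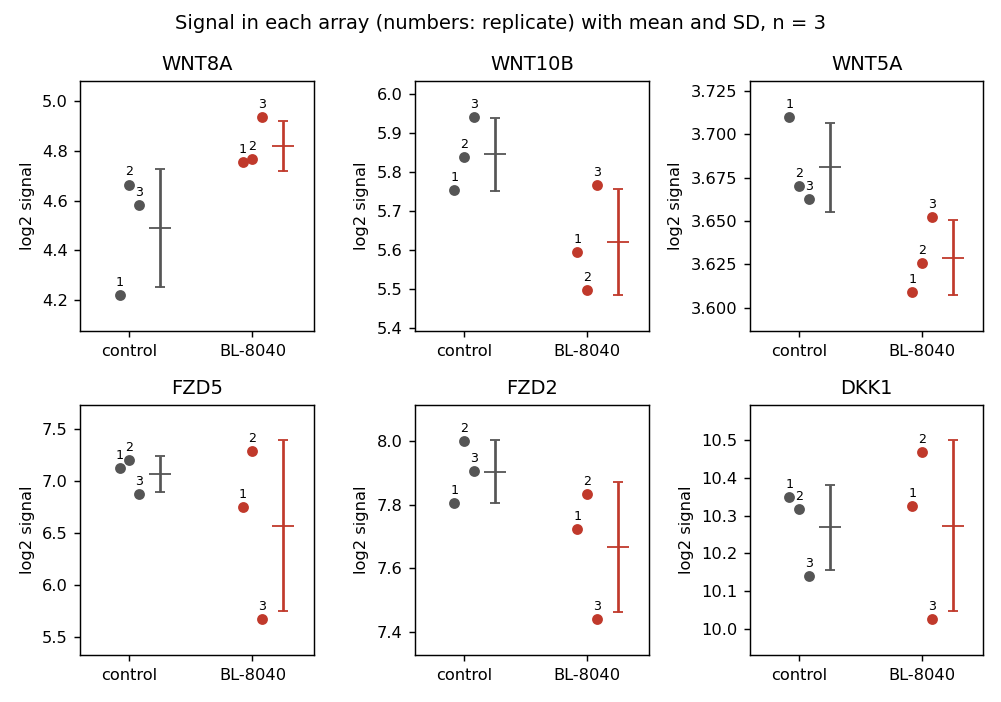
Log2 signal (vertical axes, scaled to each gene) in the 3 control and 3 BL-8040 arrays for 6 genes; points are arrays numbered by replicate, and bars to their right are the mean and SD (n = 3). The 3 treated values of WNT8A lie above all controls, those of WNT5A below by a small margin, and FZD5 and FZD2 are lowest in BL-8040 replicate 3.

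The co-receptors LRP5 and LRP6, which carry the signal of canonical ligands together with a Frizzled receptor, stayed near their control levels. LRP5 read 8.39, 8.35 and 8.17 after BL-8040 and 8.43, 8.51 and 8.33 in the controls. LRP6 read 8.64, 8.60 and 8.49 after BL-8040 and 8.58, 8.47 and 8.54 in the controls. Treated and control values overlapped in both genes. The differences were -0.12 ± 0.09 for LRP5 and 0.04 ± 0.07 for LRP6 (SE), with 95% intervals from -0.31 to 0.08 and from -0.12 to 0.21.

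Of the Dickkopf genes, the brightest was DKK1, which blocks canonical signalling by removing LRP6 from ligand binding. DKK1 stood at 10.33, 10.47 and 10.03 after BL-8040 and at 10.35, 10.32 and 10.14 in the controls. The third replicate was the lowest of its group in both, and the group means were equal to 2 decimals, at 10.27 ± 0.23 and 10.27 ± 0.11 (SD, n = 3 each). The difference of 0.004 had a 95% interval from -0.26 to 0.27. DKK2, which can block or favour signalling with the cell context, read 8.26, 8.33 and 8.44 against 8.47, 8.27 and 8.01, a difference of 0.10 ± 0.12 (SE). Its control values spanned more than its treated ones, and without control replicate 3 the difference of DKK2 was -0.02.

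DKK3, a divergent member of the family, read 8.21, 8.05 and 8.20 against 8.14, 8.11 and 8.15 on its brighter probe set, a difference of 0.02 ± 0.07 (SE). It was the only gene of the set with a second probe set under the same single symbol. That probe set was dim, at a mean of 3.79, and differed by 0.34, with 4.05, 4.15 and 3.69 after BL-8040 and 3.29, 3.89 and 3.69 in the controls. The 2 probe sets of DKK3 thus gave differences of unlike size, and the groups overlapped on both. DKK4, an antagonist that Wnt signalling itself induces, was dim, between 3.54 and 3.72, and differed by 0.07 ± 0.07 (SE). All 4 Dickkopf differences were above 0 on the deposited values, with a limma adjusted p of 0.814 or more for DKK4, DKK2, DKK3 and DKK1. The direction was not stable. DKK1 was at -0.01 under quantile normalization, 2 of the 4 were below 0 without BL-8040 replicate 1 and without control replicate 3, and 1 of the 4 was below 0 without BL-8040 replicate 2 (DKK1) and without BL-8040 replicate 3 (DKK3).

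The SFRP genes were 2 higher and 2 lower. SFRP1, the bright member, read 8.55, 8.57 and 8.43 after BL-8040 and 8.44, 8.49 and 8.49 in the controls. Its difference was 0.05 ± 0.07 (SE), within the spread of the arrays. SFRP5 read 5.58, 5.71 and 5.78 against 5.88, 5.74 and 5.90, a difference of -0.15 ± 0.08 (SE), with 1 treated value above the lowest control. SFRP2, a product of fibroblasts in many tissues, read 4.04, 3.95 and 4.36 against 3.95, 4.15 and 4.01 (difference 0.08 ± 0.11, SE). The highest was BL-8040 replicate 3, where 6 of 10 fibroblast markers were also highest and 3 were lowest. Of all genes, 16.3% were highest and 30.5% lowest there. The part of fibroblast content in the SFRP2 value was not tested. Without that array the difference of SFRP2 was -0.04. SFRP4 was the dimmest gene of the set, between 2.79 and 3.28, and differed by -0.02 ± 0.12 (SE).

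Other genes of the pathway were taken from 7 lists of general knowledge that hold 64 genes, of which 62 were measured. None passed at an adjusted p under 0.05 in limma. At an unadjusted p under 0.05 stood 1 higher and 2 lower genes (4.84%, against 7.72% of all genes), and groups did not overlap for 2 higher and 7 lower ones (14.5%, against 14%). In all 22 were higher and 40 lower (64.5% lower, against 58.5% of all genes), with a median difference of -0.05. The shares at an unadjusted p under 0.05 and without overlap were near or below those of all genes. The share of lower genes was above that of all genes, and this was not tested. CTNNB1, which encodes β-catenin, read 9.39, 9.48 and 9.48 after BL-8040 and 9.51, 9.42 and 9.39 in the controls, a difference of 0.01 ± 0.07 (SE). AXIN2, the negative regulator that canonical signalling induces most widely, read 4.75, 4.79 and 4.64 against 4.61, 4.69 and 4.81, a difference of 0.02 ± 0.08 (SE). LEF1, a nuclear partner of β-catenin, was dim, at percentile 11.9, and differed by 0.09 ± 0.08 (SE).

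The 9 measured genes of the R-spondin axis, which regulates the level of Frizzled and LRP at the surface, were 3 higher and 6 lower. LGR5, an R-spondin receptor that is itself a Wnt target, was the 1 of the 9 at an unadjusted p under 0.05. The share of all genes at that cut was 7.72%. LGR5 was bright, at percentile 97.3, and stood at 9.83, 9.65 and 9.18 after BL-8040 and at 9.83, 10.06 and 9.93 in the controls. The treated values lay below all controls, though BL-8040 replicate 1 and control replicate 1 were equal to 2 decimals. The difference was -0.39 ± 0.15 (SE), or 0.764 times the control level (limma adjusted p = 0.644, exact permutation p = 0.1). Without BL-8040 replicate 3 the difference of LGR5 was -0.20. As for FZD5, the lowest value was in BL-8040 replicate 3, the array with the lowest adrenergic marker level. Of all genes, 30.5% were lowest in that array. The part of tumour cell content or state in the LGR5 value was not tested.

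Of 14 measured target genes of canonical signalling, 7 were higher and 7 lower, with a median difference of -0.02. BAMBI, a decoy receptor of the TGF-β family that β-catenin can induce, differed most. It read 6.61, 6.44 and 6.98 after BL-8040 and 6.38, 6.20 and 6.11 in the controls, without overlap. The difference was 0.45 ± 0.14 (SE), or 1.37-fold. It had an adjusted p of 0.644 in limma and an exact permutation p of 0.1. Without BL-8040 replicate 3 the difference of BAMBI was 0.30. BAMBI and LGR5, both on the target list, thus stood on opposite sides of 0.

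The receptors and polarity proteins of β-catenin-independent signalling were 4 higher and 7 lower. Of these 11, 1 stood at an unadjusted p under 0.05, against 7.72% of all genes. Groups did not overlap for 2 of them, PRICKLE2 and CELSR2, both lower, against 14% of all genes. PRICKLE2, a cytoplasmic planar polarity protein, was the 1 at an unadjusted p under 0.05, and was dim, at percentile 21.8. It read 3.89, 4.14 and 4.18 against 4.27, 4.31 and 4.27 (difference -0.21 ± 0.09, SE, limma adjusted p of 0.644). Without BL-8040 replicate 1 the difference of PRICKLE2 was -0.12. The 11 cytoplasmic transducers, from the Dishevelled proteins to GSK3B, were 6 higher and 5 lower with a median difference of 0.002. The 11 measured TCF and LEF factors and their partners were 3 higher and 8 lower (median -0.05). The 10 further antagonists, FRZB and WIF1 among them, were all lower, where 58.5% of all genes were. Their differences lay between -0.19 (SOSTDC1) and -0.01 (KREMEN1), with none at an unadjusted p under 0.05, against 7.72% of all genes. Groups did not overlap for 1 of them (SOSTDC1), against 14% of all genes, and only 2 of the 10 ranked above the median gene. All 10 were lower under both other scalings. The count was 7 of 10 without BL-8040 replicate 2 and 8 without control replicate 3. It was 9 with array weights, without BL-8040 replicate 3 or without control replicate 2. WLS, which carries WNT ligands to the cell surface, differed by 0.06 ± 0.09 (SE).

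**Figure D5:**
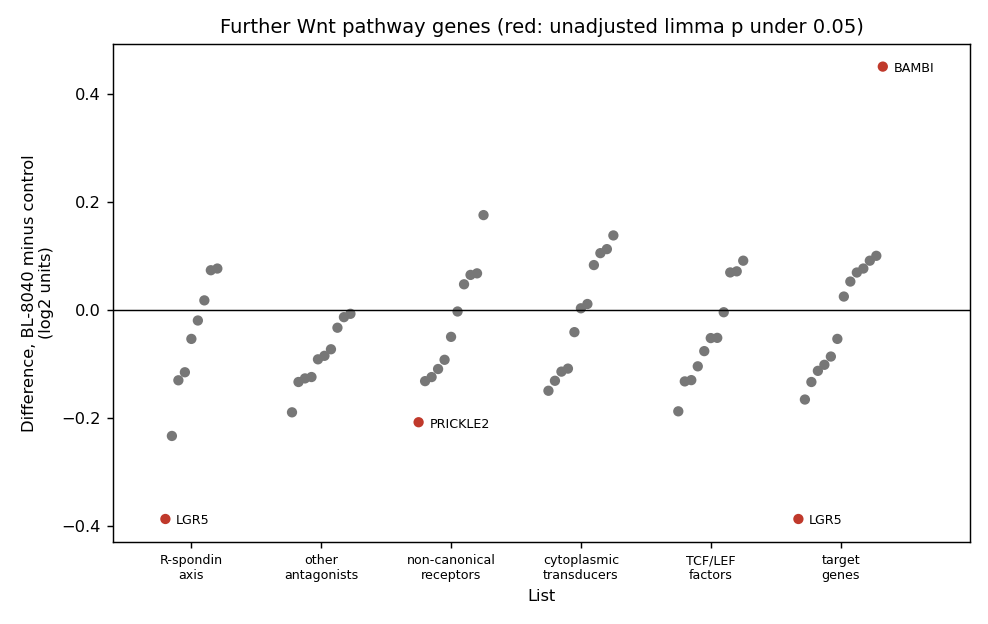
Difference in log2 signal, BL-8040 minus control (vertical axis), for the measured genes of 6 further lists (horizontal axis); each point is a gene, and red points have an unadjusted limma p under 0.05. LGR5 appears in 2 lists at -0.39, PRICKLE2 lies at -0.21 and BAMBI at 0.45, and the other genes lie closer to 0 than LGR5 and BAMBI.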

How the data were processed

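RNA was extracted with Trizol from 6 tumours and 200 ng of each was labelled, per the labels' protocols. The authors deposited 1 table of log2 values, 1 column per array. The submitters' processing notes name Partek 6.6; the handling of background, normalization and probe summarization is not stated there. Groups and replicate numbers came from sample titles, and the design text gives 3 mice per group.

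Platform annotation gave 1 symbol to 19460 of 33297 probe sets; those with several (1754) or none (12083) were not used. The probe set with the highest 6-array mean was kept per gene. BL-8040 and control arrays were compared for 18417 genes with limma 3.58.1 (lmFit, eBayes, two-sided) in R 4.3.3, with Benjamini-Hochberg adjustment, on the deposited values without renormalization. The fit was checked on simulated data. All 39 genes of the set are named; values in every array are given for 18 of them (unadjusted p under 0.05, no overlap of groups, a difference of at least 0.3, or among the 3 brightest of a role), and in the further lists for genes at an unadjusted p under 0.05, CTNNB1 and AXIN2. The set and lists were chosen with earlier results of these data known. Replicate numbers do not pair the mice by any label. Human sequences were not used here.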

Additional observations from a re-analysis of the deposited data

How the results depend on the processing

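The number of genes passing the adjusted limma test was 0 under every alternative run: quantile normalization or median centring of the arrays, removal of dim genes (below the median gene, or below log2 6), averaging a gene's probe sets, weighting the arrays, moderation with a trend and robust to outliers, the replicate block, an adjusted threshold of 0.1, and leaving out each array in turn. At an unadjusted p under 0.05 the count was 714 or 727 with dim genes removed and otherwise between 905 and 1838 of 18417 genes. At an unadjusted p under 0.05 the count in the set of 39 went from 2 to 1 when dim genes were removed (18 tested, FZD2), where 7.75% or 7.77% of all genes stood. It went to 4 with the replicate block (FZD2, FZD8, WNT8A and WNT10B), where 8.08% of all genes stood. With 1 array left out it lay between 1 and 4, where 4.91% to 9.98% of all genes stood. Genes whose groups did not overlap went from 2 to 0 when dim genes were removed (18 tested, 14.7% of all genes). Their count was 4 under quantile normalization (15.0% of all genes) and under median centring (12.0%). It lay between 2 and 8 with 1 array left out, where fewer values make overlap rarer (21.5% to 29.5% of all genes). The replicate numbers are shared by the groups in the titles only: same-numbered arrays correlated in their deviations at -0.04, 0.02 and 0.08.

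The direction was followed one by one for 24 genes. These were the 18 members with values given in every array, and LGR5, PRICKLE2, BAMBI, CTNNB1, AXIN2 and LEF1. Of the 24, 17 kept their direction under all alternatives run for them. The exceptions among the 24 were 7 genes whose difference was at most 0.10. The members outside the 24 are not described by these counts. WNT8B, 1 of them, was at -0.15 on the deposited values and at 0.002 without control replicate 3. DKK1 was -0.0106 under quantile normalization, and CTNNB1 was -1.83e-04 under quantile normalization and -0.00521 with array weights. With 1 array left out, differences lay between -0.0931 and 0.128 for DKK1, -0.0237 and 0.205 for DKK2, -0.00819 and 0.0747 for DKK3, -0.0219 and 0.0741 for FZD3, -0.0415 and 0.167 for SFRP2, -0.0156 and 0.0452 for CTNNB1, and -0.0230 and 0.0771 for AXIN2. The cause was not tested.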
